A study of Mus musculus with 2 samples.

Results

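The Krüppel-like factor (KLF) genes described here were *Klf2*, *Klf3*, *Klf4*, *Klf6*, *Klf7*, *Klf9*, *Klf10*, *Klf11*, *Klf13* and *Klf16*. They were chosen by symbol from the deposited gene table, which gave all 10 of them among 37451 genes. Both libraries were RNA-Seq of primary mouse bone marrow-derived macrophages (BMDMs) of the C57BL/6 strain, grown with CSF-1 from L929 cells. One genotype was wild type (WT), and the other, ΔM, lacked tristetraprolin (TTP, gene *Zfp36*), an RNA-binding protein that promotes mRNA decay, through TTP fl/fl LysMCre, in which Cre is made from the lysozyme M locus of myeloid cells. The mice were littermates of 7 to 9 weeks, and cells of both genotypes had received 100 µM 4-thiouridine for 16 h and then 10 ng/ml LPS for 6 h per the protocol (the sample titles carry LPS7, with no word on what the 7 stands for), so no unstimulated cells were compared here. With 1 library per genotype and no number of animals given, the difference between genotypes has no replicate check here. Every interval given here covers counting error only. The study also measured expression and mRNA decay in WT and ΔM BMDMs with biological replicates, and those data were not used.

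KLF proteins are transcription factors that bind GC-rich and CACCC elements in promoters through zinc fingers at their C-terminus, and their N-terminal parts differ. KLF2, KLF4, KLF6 and KLF7 are mainly known as activators, KLF3 recruits the corepressor CtBP, and KLF9, KLF10, KLF11, KLF13 and KLF16 recruit the corepressor Sin3. In macrophages, KLF2 is known as a brake on inflammatory genes, KLF4 as a factor of monocyte differentiation and alternative activation, and KLF6 as a partner of NF-κB in inflammatory activation. Several KLF genes are immediate-early or early response genes with short-lived mRNAs.

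TTP binds AU-rich RNA, with TATTTAT as its preferred heptamer and ATTTA as the core pentamer (written here as DNA). HuR is another protein that binds U-rich RNA. The study mapped sites of both by crosslinking in LPS-treated BMDMs, and the lists used here are those at 6 h of LPS. TTP sites that the study mapped at an earlier time were not used. The sequences of sites within *Klf7* (listed for TTP only), *Klf13* (both proteins) and *Klf6* (HuR only) are shown. All were located on NCBIM37 (mm9) and are written 5′ to 3′ along the RNA, with each ATTTA in capitals.
*Klf13*, TTP, minus strand, chr7:71065593-71065622: ttATTTAttATTTATTTATTTATTTATTTA
*Klf13*, TTP, minus strand, chr7:71065550-71065579: gttttttaATTTAtgtattttgataattgt
*Klf13*, TTP, minus strand, chr7:71065658-71065665: attcactt
*Klf7*, TTP, minus strand, chr1:64122340-64122368: tcATTTAcctattcattATTTActtattt
*Klf7*, TTP, minus strand, chr1:64122302-64122318: tttatctacttacttat
*Klf7*, TTP, minus strand, chr1:64122328-64122337: ctacttcctt
*Klf13*, HuR, minus strand, chr7:71032532-71032558: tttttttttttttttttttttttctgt
*Klf6*, HuR, plus strand, chr13:5869079-5869093: gttttgttttattgt

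The lines hold every listed TTP site of at least 8 nt in *Klf13* (3 of 6 sites) and *Klf7* (3 of 3), the single HuR site in *Klf13*, and the longest of 9 HuR sites in *Klf6*. The first *Klf13* site is 30 nt of a 38 nt site that held 6 pentamers and 6 heptamers (overlaps counted) and was 92.1% A and T. The second is 30 nt of a 35 nt site that held 1 pentamer, and the third held 0. All 3 lie in intron 1 of the longest annotated transcript, which has 2 exons, and the first is 3929 nt from the nearest exon. The 3 shorter TTP sites of *Klf13* were not placed within the transcript. The 3 *Klf7* sites lie in intron 2 of the longest annotated transcript, which has 4 exons, and the first is 2911 nt from the nearest exon. That site held 2 pentamers and 0 heptamers, and the other two held 0 pentamers. In contrast to these intronic sites, the HuR sites shown are exonic, in exon 2 of *Klf13* and in the 3′ UTR in exon 4 of *Klf6*.

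A heptamer was found in the longest annotated 3′ UTR of 6 of 10 genes, and these windows of 21 nt are shown for comparison with the intronic sites, with TATTTAT in capitals.
*Klf2*, plus strand, chr8:74844891-74844911: agactgcTATTTATtggacct
*Klf6*, plus strand, chr13:5867740-5867760: cgtctctTATTTATgccttga
*Klf6*, plus strand, chr13:5868193-5868213: ccggctgTATTTATtatgtaa
*Klf7*, minus strand, chr1:64076362-64076382: tctctggTATTTATaatatat
*Klf10*, minus strand, chr15:38224679-38224699: gtcttttTATTTATaggagtt
*Klf11*, plus strand, chr12:25345780-25345800: ataaaaaTATTTATattgtgc
*Klf16*, minus strand, chr10:80030976-80030996: aagaaatTATTTATtgtcctc

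These windows are matches to letters on the sense strand, not measured sites, and every heptamer contains a pentamer. The pentamer was present in the 3′ UTR of 10 of 10 genes, against 61.3% of 20007 genes with an annotated 3′ UTR, and the heptamer is present in 23.8% of those genes. Since long UTRs hold more matches by length alone, each gene was set beside genes whose 3′ UTR was 80% to 125% as long as its own. Of such genes, 61.1% to 98.7% held a pentamer, depending on the KLF gene, and these shares sum to 8.45 of 10. For the heptamer they were 17.6% to 66.8% and sum to 3.87, beside the 6 KLF genes that held it. *Klf7*, with a 3′ UTR of 6280 nt, held 18 pentamers, where the median of 392 genes of like length was 10 and 83.9% had fewer. *Klf13*, with 5157 nt, held 3 pentamers, where the median of 695 genes was 8 and only 8.78% had fewer. Thus the pair of genes with an intronic TTP site shown above stood on opposite sides of these medians in the 3′ UTR. *Klf6*, with 3110 nt, held 7 pentamers against a median of 5, and *Klf2*, with 737 nt, held 1 against a median of 1.

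**Figure D1:**
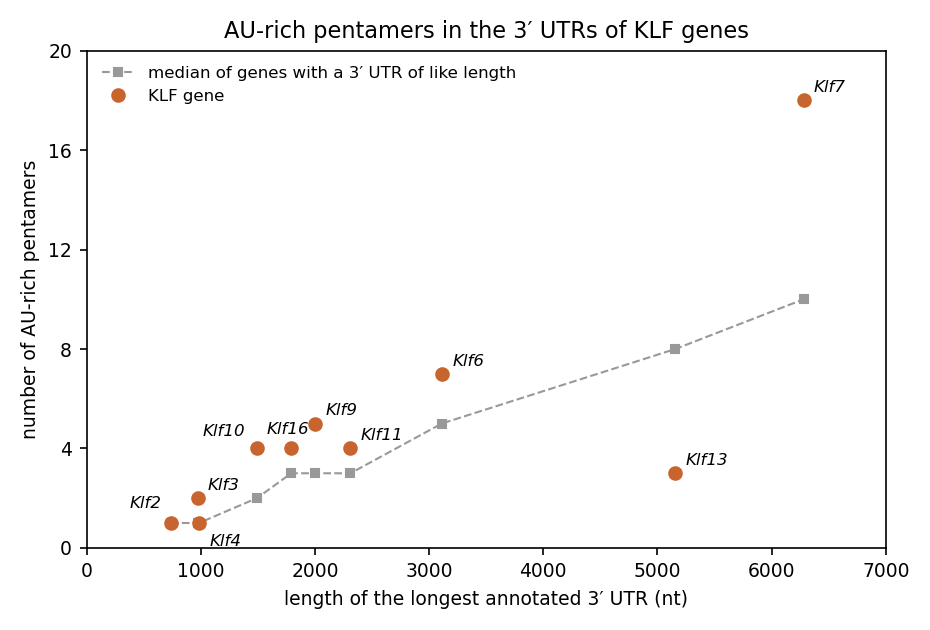
Number of AU-rich pentamers (ATTTA in DNA letters) against the length of the longest annotated 3′ UTR in nt, for the 10 KLF genes (orange points) and for the median of genes with a 3′ UTR of like length (grey squares). *Klf7* lies above the grey line with 18 pentamers against 10, and *Klf13* below it with 3 against 8.

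Levels are given as FPKM, the number of fragments divided by exon length and by the mapped total of the library, which can be compared between genes because they are scaled by length. From the smallest steps between low values, the depth was estimated at 36850000 fragments in WT and 32650000 in ΔM. The targeted gene *Zfp36* measured 65.26 FPKM in WT and 16.71 FPKM in ΔM, in the direction of the labels. The 6 macrophage markers found by symbol (among them *Csf1r*, *Cd68* and *Itgam*) ranged from 104 to 2481 FPKM in WT and from 110 to 1356 FPKM in ΔM. Markers of T cells, B cells, neutrophils and their progenitors, fibroblasts, erythroid cells and dendritic cells were at or below 0.3 FPKM in both libraries. The summed level of the macrophage list was 3693 FPKM in WT and 2532 FPKM in ΔM, mainly through *Lyz2*, the lysozyme M gene that carries Cre in ΔM, at 2480.86 and 1356.26 FPKM. Of 3 endothelial markers, *Kdr* was at 5.59 FPKM in WT against 3.23 FPKM in ΔM, while *Cdh5* and *Tek* were at or below 0.04 FPKM. The part of these differences in the KLF values was not tested.

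Expression of the 10 KLF genes in these macrophages was dominated by *Klf6*. It measured 51.81 FPKM in WT and 44.72 FPKM in ΔM, which was 68.4% and 70.1% of the summed FPKM of the 10 genes, and it exceeded 96.6% of protein-coding genes in WT. Among the 10 genes, *Klf7*, *Klf13* and *Klf3* followed at 8.34, 7.17 and 4.32 FPKM in WT. *Klf8*, which is not among the 10, was listed higher than these in WT, at 12.57 FPKM, an uncertain value described below. *Klf2* and *Klf4*, at 1.37 and 1.20 FPKM in WT, were low in both libraries. *Klf10* and *Klf16* were below 1 FPKM in WT, and *Klf9* and *Klf11* were at 0.08 and 0.13 FPKM, close to the lower end of what could be measured.

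In WT, the order of levels was *Klf6*, *Klf7*, *Klf13*, *Klf3*, *Klf2*, *Klf4*, *Klf10*, *Klf16*, *Klf11* and *Klf9*. The 95% Poisson intervals overlapped for 4 of 9 pairs of neighbours. The interval of the ratio between neighbours included 1 for 3 pairs (*Klf2* and *Klf4*, *Klf10* and *Klf16*, *Klf11* and *Klf9*), so no difference beyond counting error was detectable for these. *Klf7* was above *Klf13* by a ratio of 1.16 (1.02 to 1.32), or 0.88 to 1.53 if both genes used their shortest transcript. In ΔM, *Klf13* stood above *Klf7*, with 7.01 FPKM (6.52 to 7.53) against 5.08 FPKM (4.38 to 5.86), a ratio of 1.38 (1.17 to 1.63), or 0.98 to 1.95 with the shortest transcripts. *Klf10* stood above *Klf2* and *Klf4* in ΔM, at 1.04 against 0.94 and 0.68 FPKM, and the interval of the ratio included 1 for *Klf10* and *Klf2* and for *Klf2* and *Klf4*.

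**Figure D2:**
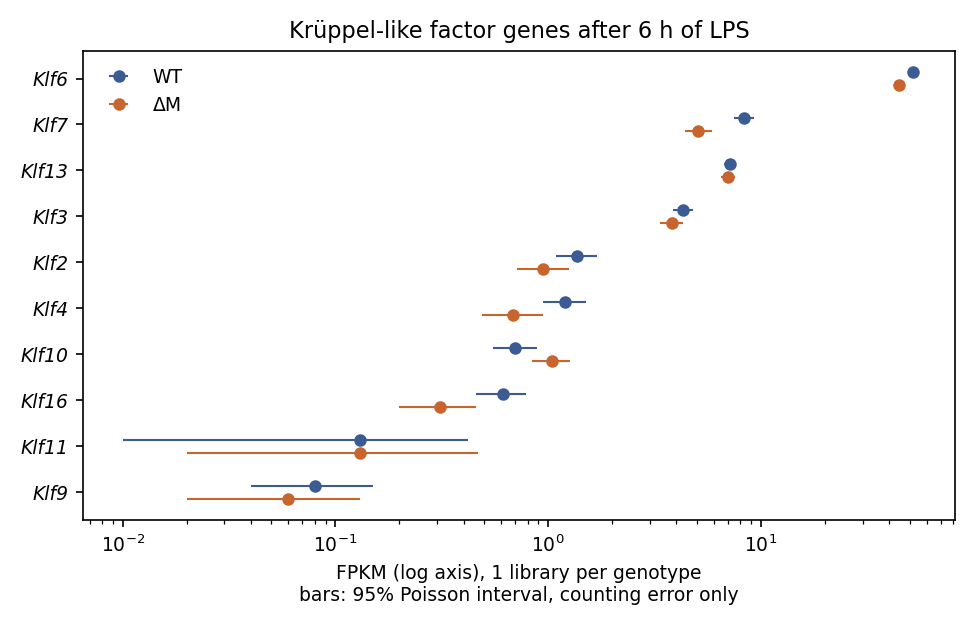
FPKM of the 10 KLF genes on a log axis in the WT library (blue) and the ΔM library (orange), 1 library each, with bars for 95% Poisson intervals that cover counting error only. *Klf6* lies far above the others in both libraries, *Klf7* changes places with *Klf13*, and the intervals of *Klf9* and *Klf11* are wide.

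The comparison of ΔM with WT addressed whether KLF mRNAs differed in cells lacking TTP. The level in ΔM was lower for 8 of the 10 genes, higher for *Klf10* and equal for *Klf11*. The 95% counting interval of the ratio lay below 1 for 5 genes (*Klf2*, *Klf4*, *Klf6*, *Klf7* and *Klf16*), above 1 for *Klf10*, and included 1 for the other 4. Among 12155 protein-coding genes at or above the lowest mean of the KLF genes, 48.8% had a lower FPKM in ΔM, 21.5% had an interval below 1 and 21.0% had an interval above 1. These intervals do not include the variation between cultures or animals. Fewer cells of a type and less RNA per cell cannot be told apart in such bulk samples.

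In size, the differences were modest for the KLF genes averaging 1 FPKM or more. A mean of at least 1 FPKM over both libraries was reached by 5 of the 10 genes (*Klf2*, *Klf3*, *Klf6*, *Klf7* and *Klf13*). On the log2(FPKM + 1) scale, which understates differences of low genes, 1 of these 5 (*Klf7*) was past a threshold of 25% (higher in WT than in ΔM by at least 25%) and 0 were past it in the other direction. Of 10765 genes with such a mean, 15.5% were lower in ΔM by this threshold and 21.2% were higher. None of the 5 differed by more than 2-fold, a size that 9.31% of the 10765 genes passed in either direction. With protein-coding genes only, as the KLF genes are, that share was 2.51%. The share past 25% in either direction was then 28.7%, against 36.6% of the 10765 genes. The median log2 difference of the 5 genes was -0.21, against 0.03 over the 10765 genes. The 5 KLF genes below that mean were left out of these counts. Without a pseudocount, their log2 ratios were -0.98 (*Klf16*), -0.82 (*Klf4*), -0.42 (*Klf9*), 0.00 (*Klf11*) and 0.57 (*Klf10*). The central 50% of protein-coding genes ran from -0.29 to 0.31 on that scale.

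**Figure D3:**
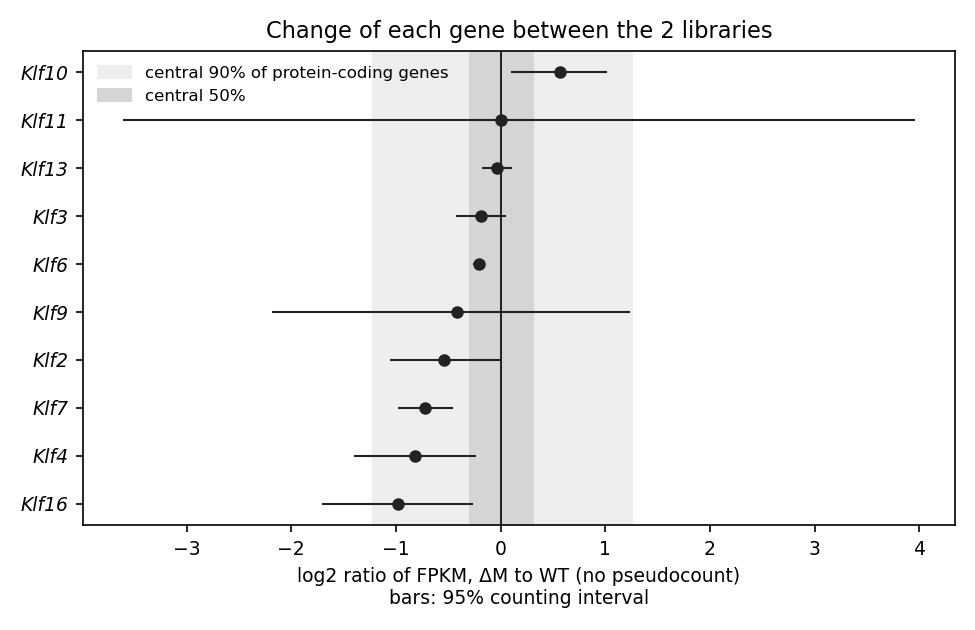
Log2 ratio of FPKM in ΔM to WT, without a pseudocount, for each KLF gene, with bars for the 95% counting interval. Grey bands mark the central 50% (-0.29 to 0.31) and 90% (-1.22 to 1.26) of protein-coding genes. *Klf10* lies to the right of 0, and *Klf2*, *Klf4*, *Klf6*, *Klf7* and *Klf16* lie to the left with their whole interval.

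Among the activators, all 4 had a lower level in the ΔM library, as did 48.8% of the 12155 protein-coding genes. Their summed level was 62.7 FPKM in WT and 51.4 FPKM in ΔM, most of it from *Klf6* (51.81 and 44.72 FPKM). *Klf7* (ENSMUSG00000025959, chr1:64076021-64168856, minus strand), related in sequence to *Klf6* and known from neuronal and adipose biology, measured 8.34 FPKM in WT and 5.08 FPKM in ΔM, about 348 and 188 fragments. Its level was 1.64-fold lower in ΔM (interval 1.37 to 1.97), and 6.92% of the 10765 genes had a lower log2 ratio. Of its exon sequence, 3196 nt are shared with the lincRNA gene *Gm17427* on the opposite strand. That gene was listed at 0 in both libraries, so no counted reads of the shared stretch were assigned to it. Whether any reads counted for *Klf7* came from the opposite strand was not tested.

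*Klf6* (ENSMUSG00000000078, chr13:5860735-5869639, plus strand) was the most precisely measured, with about 7672 fragments in WT and 5867 in ΔM. Its 51.81 and 44.72 FPKM gave a level 1.16-fold lower in ΔM (interval 1.12 to 1.20), a small difference that exceeded counting error. With 1 annotated transcript of 4217 nt, its fragment number does not depend on the choice of transcript.

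*Klf2* (ENSMUSG00000055148, chr8:74842932-74845555, plus strand) measured 1.37 FPKM in WT and 0.94 FPKM in ΔM. Its level was 1.46-fold lower (interval 1.01 to 2.09), and the bound nearest to 1 lay at the edge of counting error. *Klf4* (ENSMUSG00000003032, chr4:55540013-55545347, minus strand) measured 1.20 FPKM in WT and 0.68 FPKM in ΔM, 1.76-fold lower (interval 1.18 to 2.64). This gene has 4 annotated transcripts of 522 to 3040 nt. If all its fragments came from the shortest, they would number 14.3 and 7.17, and the interval of the log2 ratio would run from -2.38 to 0.58 and include 0.

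*Klf3* (ENSMUSG00000029178, chr5:65194628-65221368, plus strand), the CtBP-binding repressor, measured 4.32 FPKM in WT against 3.80 FPKM in ΔM. The level was 1.14-fold lower in ΔM, with an interval of 0.97 to 1.34, so no difference was detectable at about 337 and 262 fragments.

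The 5 Sin3-binding factors together measured 8.69 FPKM in WT and 8.55 FPKM in ΔM, with 3 lower in ΔM, 1 higher and 1 equal. *Klf13* (ENSMUSG00000052040, chr7:71031237-71083801, minus strand), first described as a regulator of the chemokine gene *Ccl5* in T cells, made up most of this sum. It measured 7.17 FPKM in WT and 7.01 FPKM in ΔM, a ratio of ΔM to WT of 0.98 (interval 0.89 to 1.08). The level of this gene thus did not differ beyond counting error at about 872 and 755 fragments. Its intron holds the longest run of pentamers shown above, and whether TTP binding there bears on the level was not tested.

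*Klf10* (ENSMUSG00000037465, chr15:38221219-38230464, minus strand), a TGF-β-induced early gene, was the only one of the 10 with a higher value in ΔM. It measured 0.70 FPKM in WT and 1.04 FPKM in ΔM, about 71.5 and 94.1 fragments, a ratio of 1.49 (interval 1.07 to 2.03). *Klf16* (ENSMUSG00000035397, chr10:80029869-80040066, minus strand) had the most extreme ratio, 1.97-fold lower in ΔM (interval 1.19 to 3.26). It rests on about 55 and 24.7 fragments, at 0.61 and 0.31 FPKM.

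*Klf11* (ENSMUSG00000020653, chr12:25336236-25347639, plus strand), which like *Klf10* is induced by TGF-β, was listed at 0.13 FPKM in both libraries. *Klf9* (ENSMUSG00000033863, chr19:23215716-23241401, plus strand), a glucocorticoid-responsive member, was at 0.08 FPKM in WT against 0.06 FPKM in ΔM, about 9.03 and 6 fragments. The interval of the log2 ratio ran from -3.61 to 3.96 for *Klf11* and from -2.18 to 1.24 for *Klf9*, so differences of several fold were not detectable at the median transcript length. For *Klf11*, whose 4 transcripts span 380 to 3974 nt, the interval would be -1.06 to 1.06, on about 18.1 and 16 fragments, if all came from the longest.

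Motif content and level in ΔM can be set side by side. Of the 6 genes with a heptamer in the 3′ UTR, *Klf2*, *Klf6*, *Klf7* and *Klf16* had a lower level in ΔM with an interval below 1, *Klf10* a higher level, and *Klf11* an equal one. Of the 4 genes with 0 heptamers, *Klf4* had a lower level with an interval below 1, and the intervals of *Klf3*, *Klf9* and *Klf13* included 1. Over all protein-coding genes at these levels, 23.8% of 3157 with a 3′ UTR heptamer had an interval below 1 and 24.5% had one above 1, against 21.4% and 20.3% of 8615 without a heptamer. *Klf10* was the only one of the 10 genes with a higher level in ΔM, so no other gene could have combined that with a heptamer.

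Of 7 other KLF genes, *Klf8* was the only one with a mean of at least 1 FPKM, and *Klf1*, *Klf5*, *Klf12*, *Klf14*, *Klf15* and *Klf17* were at or below 0.16 FPKM. *Klf8*, a CtBP-binding repressor like *Klf3*, was listed at 12.57 FPKM in WT against 2.95 FPKM in ΔM, a log2(FPKM + 1) difference of -1.78. This value is uncertain, because one annotated transcript of *Klf8* is only 247 nt long. At that length the values would stand for 22.5 and 4.62 fragments, in place of 1949 and 405 at the median length.

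The SP factors bind the same GC-rich elements as KLF proteins. In the SP list, 3 of 9 genes had a mean of at least 1 FPKM, and 0 of them passed 1.5-fold on the log2(FPKM + 1) scale, where 7.51% of all 10765 genes were lower by more than 1.5-fold and 11.2% were higher. *Sp1* measured 10.89 FPKM in WT and 15.43 FPKM in ΔM, *Sp2* 1.17 and 1.95 FPKM, and *Sp3* 15.28 and 12.33 FPKM. Hence *Sp1* and *Sp2* had higher values in ΔM and *Sp3* a lower one, with log2(FPKM + 1) differences of 0.47, 0.44 and -0.29. Without the pseudocount, *Sp2* was 1.67-fold higher in ΔM (interval 1.32 to 2.12).

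All 10 listed corepressors and coactivators of KLF proteins had a mean of at least 1 FPKM, with a median log2(FPKM + 1) difference of -0.09. *Kat2b*, which encodes the acetyltransferase PCAF, was the only one past 1.5-fold on that scale, at 7.84 FPKM in WT against 4.50 FPKM in ΔM. Among genes averaging 1 FPKM or more, the lists of inputs to KLF genes held 0 past 1.5-fold on the same scale. In the MEK5-ERK5-MEF2 pathway, which induces *Klf2* and *Klf4*, 5 of 7 genes had such a mean and their median was 0.08. Its most different genes were *Mapk7*, the gene of ERK5, at 5.67 and 3.68 FPKM, and *Map3k3*, an upstream kinase, at 2.96 and 4.23 FPKM. In the TGF-β list the median was also 0.08 over 5 of 7 genes, with the receptor gene *Tgfbr2* at 1.07 FPKM in WT against 1.64 FPKM in ΔM, and *Smad4* at 18.18 and 14.41 FPKM. Without the pseudocount, *Mapk7* was 1.54-fold lower and *Tgfbr2* 1.53-fold higher in ΔM. Of 3 ubiquitin ligase genes acting on KLF proteins, *Smurf1* measured 4.77 and 4.41 FPKM and *Fbxw7* 1.46 and 1.43 FPKM.

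**Figure D4:**
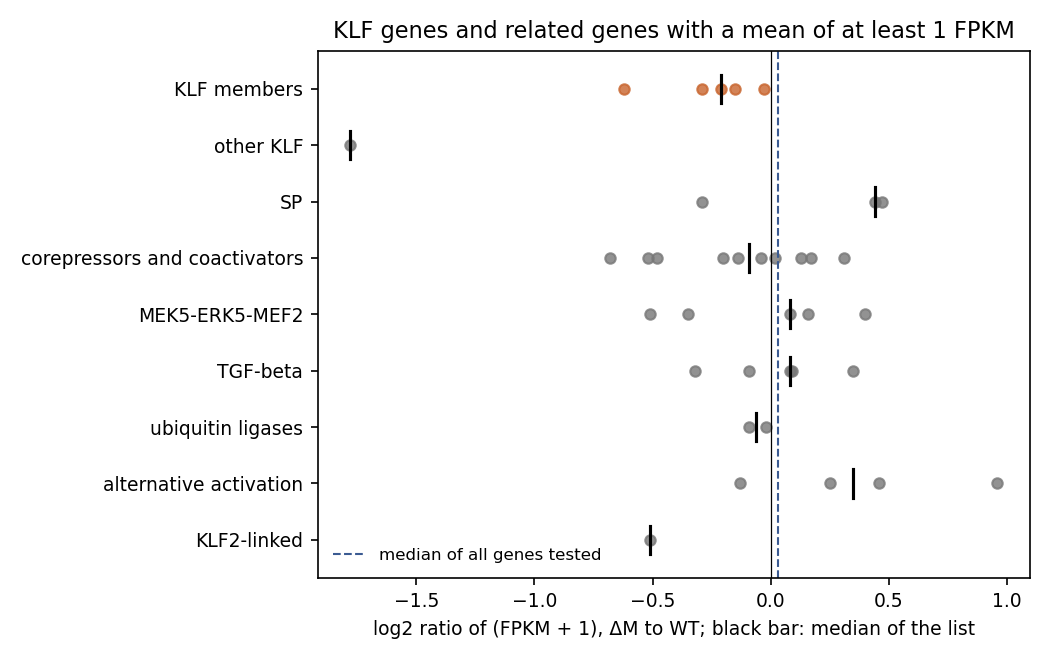
Log2 ratio of (FPKM + 1), ΔM to WT, for genes averaging 1 FPKM or more among the KLF genes and in each list of related genes, 1 point per gene, with black bars for the median of each list. The blue dashed line marks the median of all genes tested, 0.03. All 5 KLF points lie left of 0, with a median of -0.21, and *Klf8* lies farthest left at -1.78, a value that is uncertain because of its short transcript.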

How the data were processed

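RNA-Seq of 1 WT and 1 ΔM library was analyzed. Per the study's methods and notes, ribosomal RNA was depleted, and reads were trimmed with Cutadapt, mapped to mm9 with Segemehl and kept if unique. Cufflinks on Ensembl exons then gave the FPKM values that the authors deposited, with 2 decimals and 1 value per gene. In 1 gene the ΔM value was not a number. FPKM are not counts, so no count model and no test were used. A pseudocount of 1 FPKM was added for log2 differences, and genes averaging 1 FPKM or more were taken as tested.

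Depth was estimated from steps between values of at most 0.5 FPKM in genes with 1 length of 300 to 700 nt. At a tolerance of 0.1, 92.7% of 945 values in WT and 93.1% of 884 in ΔM were whole multiples of a fragment. The estimate was tested on simulated data. Fragments per gene used its median transcript length and are approximate. Poisson intervals for levels and exact conditional binomial intervals for ratios (95%) cover counting error only. Exons, UTRs and coordinates came from GENCODE M1 on NCBIM37, which held 37039 of 37451 gene IDs.

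All 10 members were named. From the related lists, named genes were KLF and SP genes averaging 1 FPKM or more, other such genes past 1.5-fold, or the 2 most different where none passed. Members and lists were chosen with earlier results of these data known. Alternatives were other pseudocounts, filters, scalings, transcript lengths and fewer fragments. Ratios between neighbouring genes and the shares of genes with a heptamer were added after the values were seen. Python 3.11.15, numpy 2.4.6, pandas 2.3.3, scipy 1.17.1 and matplotlib 3.10.9 were used.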

Additional observations from a re-analysis of the deposited data

How the results depend on the processing

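The number of KLF genes past the threshold of 25% was 1 (*Klf7*), and it was 2 with a pseudocount of 0.1 FPKM, without a pseudocount and with centring on genes of at least 10 FPKM, where *Klf2* joined *Klf7*. Without a filter on low values it was also 2, with *Klf4*. The number past 2-fold was 0 under every alternative run on it, and the median log2 difference stayed between -0.25 and -0.18. Upper-quartile scaling shifted ΔM by only 0.03 on the log2 scale. With fragment numbers lower by a factor of 1.5, the interval of *Klf2* ran from -1.18 to 0.12 and included 0, and that of *Klf10* ran from 0.00 to 1.14. With the shortest transcript as length, an alternative chosen after seeing the data, 4 genes kept an interval below 1, and *Klf4* did not. For *Klf7* the interval ran from -0.82 to -0.61 with the longest transcript and from -1.19 to -0.24 with the shortest. No paired analysis was possible because each genotype had 1 library, which also meant that no leave-one-out value exists. Neighbours in the order of levels whose ratio interval included 1 numbered 3 in WT and 4 in ΔM at the median transcript length, and 6 and 7 with the shortest. The interval of *Klf9* was limited by depth, at fewer than 10 fragments per library, and that of *Klf11* also by the transcript length assumed, with a log2 width of 7.57 at the median length and 2.12 at the longest.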

Other observations

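Genes that KLF4 and KLF2 are known to act on were listed as well. In the list of alternative activation genes, to which KLF4 contributes together with STAT6, 4 of 7 genes had a mean of at least 1 FPKM. *Mrc1*, the mannose receptor gene, was the only one past 1.5-fold on the log2(FPKM + 1) scale, at 5.45 FPKM in WT against 11.56 FPKM in ΔM. *Il4ra*, the IL-4 receptor gene, was at 469.79 FPKM in WT against 647.14 FPKM in ΔM, and was named after its values were seen. The median log2(FPKM + 1) difference of these 4 genes, 3 higher and *Stat6* lower in ΔM, was 0.35, while *Klf4* itself had the lower value in ΔM.

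In the list of genes linked to KLF2 in lymphocyte trafficking and endothelium, 1 of 5 genes had a mean of at least 1 FPKM. This was *Itgb7*, an integrin subunit gene, at 22.32 FPKM in WT against 15.42 FPKM in ΔM. *Thbd*, the thrombomodulin gene, also named after its values were seen, was at 0.07 FPKM in WT against 0.35 FPKM in ΔM. *S1pr1* was at 0.23 and 0.29 FPKM and *Nos3* was listed at 0 in both, so the list held genes in both directions. With 1 library per genotype, whether these values follow the KLF levels was not tested.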
